A study of Mus musculus with 4 samples.

Results

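The stimulated arrays of a mouse CD4 T cell study are described here: 1 array from cells labelled Med23 knockout (KO) and 1 array from wildtype (WT) cells, both stimulated for 6 h, together 2 of the 4 arrays of the series. They were chosen by their labels, and each gene's level in the KO array was set against its level in the WT array. The tissue was lymph node, and the donors of all groups were male mice of 7 weeks. The other 2 arrays hold unstimulated KO and unstimulated WT cells and serve as context. Stimulation was through the T cell receptor (TCR), per the series design, which asks which induced expression depends on Med23. The stimulating agent, the way the knockout was made, the cells in which Med23 was deleted and how CD4 T cells were selected are details not given in the sources used. Each group had 1 array and no replicates, so no test was possible and differences are given by size.

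Med23 is a tail subunit of Mediator, the complex that carries signals from DNA-bound transcription factors to RNA polymerase II. In mammalian cells Med23 is a docking site for ELK1, a factor that is phosphorylated by ERK and that acts with serum response factor (SRF) on early response genes. A helper T cell that meets its antigen leaves the resting state, which factors such as Klf2 maintain. It then takes up nutrients, makes sterols for new membrane and secretes cytokines whose choice defines its type.

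A level here is the log2 signal after subtraction of the 75th percentile that the array's own probes reach, and differences are KO minus WT on the log2 scale, so that 1 is 2-fold. A gene counts as measured when it lies above a floor at log2 -5.01 in at least 1 of the stimulated arrays, and it is called higher or lower at a 2-fold difference. With 1 of both arrays at the floor, only a limit can be given (at least or at most).

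Med23 had a level of -2.29 in the KO array and -0.75 in the WT array, a 2.91-fold lower signal in KO (-1.54). In the unstimulated arrays its levels were -1.66 in KO and -1.59 in WT. The single probe was thus lower in the array labelled KO with stimulation and nearly level without it, and its position relative to the deleted part is not known. For this reason KO here means the array labelled knockout, and each direction rests on the label. Of 32 measured Mediator genes 0 were higher (against 4.98% of all genes) and 2 lower (6.25%, against 8.13%), with a median of 0.28. The other lower one was Med31, a subunit of the middle module, at -0.97 in KO and 0.38 in WT (-1.35). Short of the 2-fold rule, the next in size on either side were Med13 of the kinase module (0.85) and the head subunit Med17 (-0.85).

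The KO array was the dimmer one. Its 75th percentile lay at a raw signal of 243.7, against 680.8 in the WT array, and 60.2% of the KO probes and 62.7% of the WT probes were above the floor. The difference between the arrays drifted with brightness, from a median of -0.06 over genes with a mean level between -4 and -3 to 0.41 over those above 4. A loess correction for level was therefore one of the alternatives. Between spots of probes printed 10 times, the SD of a log2 difference between the arrays was 0.13 above a mean level of 1 and 0.81 between the floor and -3. This SD covers spots and not animals or cultures, so small differences and those of dim genes are the less certain.

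Both arrays held abundant T cell transcripts. Cd3e, a chain of the TCR complex, had levels of 7.36 in KO and 6.97 in WT, and Lck, the kinase that starts TCR signalling, 6.18 in KO and 5.99 in WT. Cd4, which defines the labelled cell type, was at 1.01 in KO and 1.54 in WT. Of 24 T cell identity genes 1 was higher (Themis, 1.12, but 0.66 for a floor at the 60th percentile) and 1 lower (the kinase Fyn, -1.05). These are shares of 4.17% each, against 4.98% higher and 8.13% lower of all genes. The CD8 chain Cd8b1 was at -1.53 in KO and -2.58 in WT.

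Granulocyte and red cell transcripts set the WT array apart from all others. Of 52 measured granulocyte genes 46 were lower in KO (88.5%, against 8.13% of all genes) and 0 higher (median -5.69). All 46 were at least 2-fold higher in the stimulated WT array than in each of the other 3, as were 599 of all 1189 lower genes. The call itself already fixes the comparison with stimulated KO. Camp, the cathelicidin of neutrophil granules, was at the floor in KO and at 6.00 in WT. Mpo, the myeloperoxidase of granules, was at -4.38 in KO and 4.69 in WT, and Plbd1, a granule phospholipase, at -3.97 in KO and 4.72 in WT. The summed level of the list was log2 5.82 in KO and 9.06 in WT, or 3.68 in KO and 8.93 in WT without Csf3r, whose probe was bright in every array. In all, 23 of its genes were at the floor in KO against 0 in WT, S100a8, S100a9, Ltf and Retnlg among the 23. These 23 count as measured only through the WT array, so they lie above the floor there by rule. Their differences, which enter the count and the median, are limits (at most). The same holds for 6 of 17 red cell genes and 5 of 34 monocyte, macrophage and dendritic genes. Red cell genes were lower in 13 of 17 cases (76.5%) and higher in 0 (median -1.69), with the alpha globin Hba-a2 at -3.98 in KO and 6.89 in WT. Monocyte, macrophage and dendritic genes split into 15 lower (44.1%) and 4 higher (11.8%, against 4.98% of all genes) of 34. Their median was -0.35, and 0.20 in the authors' values. Lyz2, the lysozyme of myeloid cells, was at the floor in KO and at 2.70 in WT, whereas Fscn1 (2.48), Batf3 (1.92) and Cd86 (1.84), which mature dendritic cells express, were higher in KO. In such bulk RNA, fewer cells of a type and less RNA per cell cannot be told apart. The part of these cells in the differences below was not tested, and the plot of marker genes by array shows their levels.

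**Figure D1:**
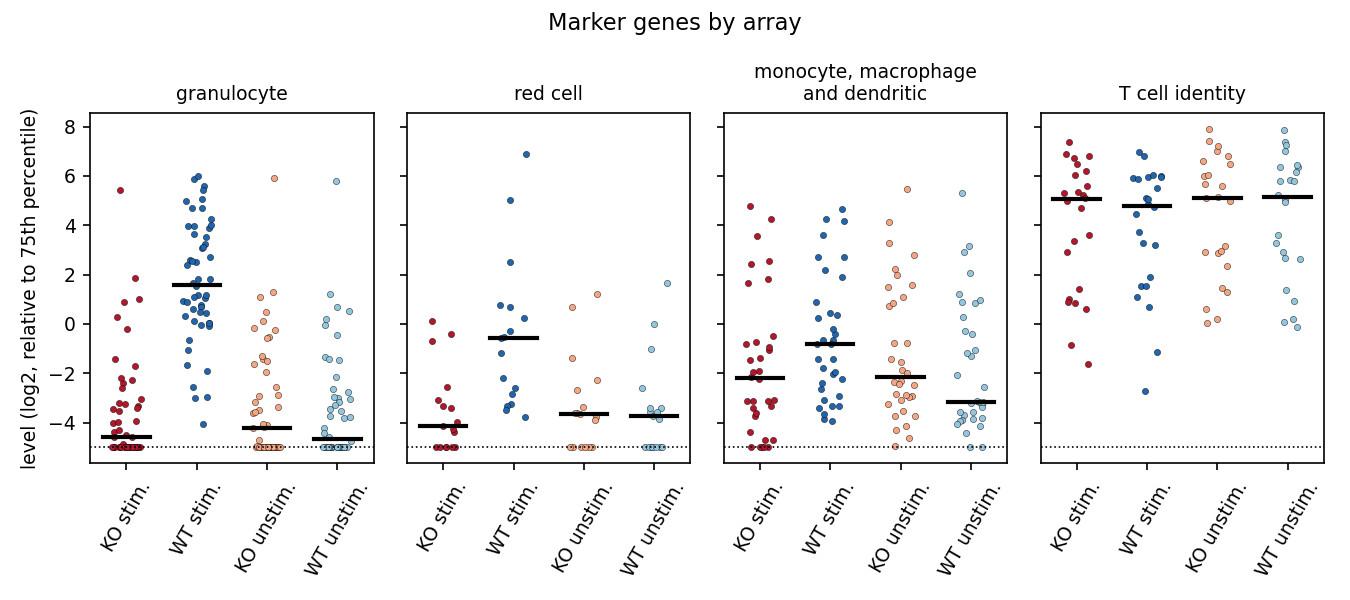
Levels (log2, above or below the array's 75th percentile) of the measured genes of 4 marker lists in each array, with 1 point per gene, a bar at the median and the floor dotted. The granulocyte median is -4.59 in stimulated KO and 1.59 in stimulated WT, while the T cell identity medians are 5.05 in KO and 4.79 in WT.

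Over all genes, 729 of 14629 measured genes were higher in KO (4.98%) and 1189 lower (8.13%), with a median difference of 0.09. Without the granulocyte, red cell and monocyte lists the counts were 725 higher (4.99%) and 1115 lower (7.68%) of 14526. Among 11344 genes with every probe above the floor in both arrays, 538 (4.74%) were higher and 740 (6.52%) lower. Among the 1115 lower ones 530 were at least 2-fold higher in the stimulated WT array than in each other array, and 277 were at least 2-fold lower in the stimulated KO array than in each other array. The share of called genes that were higher in KO was 38.0%, but scaling to the median, which moved the median of all genes to 0.28, made it 59.97%, and in the authors' values, with a median of 0.16, it was 51.8%.

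Most called genes were not called in the unstimulated pair, which shares no array with the stimulated pair. Of 642 higher genes that could be measured there, 89 were 2-fold higher there as well (13.9%), where 3.31% of all genes were. Of 956 lower genes 46 were 2-fold lower there (4.81%, against 1.42% of all genes) and 79 were 2-fold higher, where 3.31% of all genes were. Over the 10738 genes that passed the floor in every array, Pearson's r between the differences of the pairs was -0.03 and Spearman's rho -0.09. Genes are not independent replicates, and the points share the arrays and their depth of signal.

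**Figure D2:**
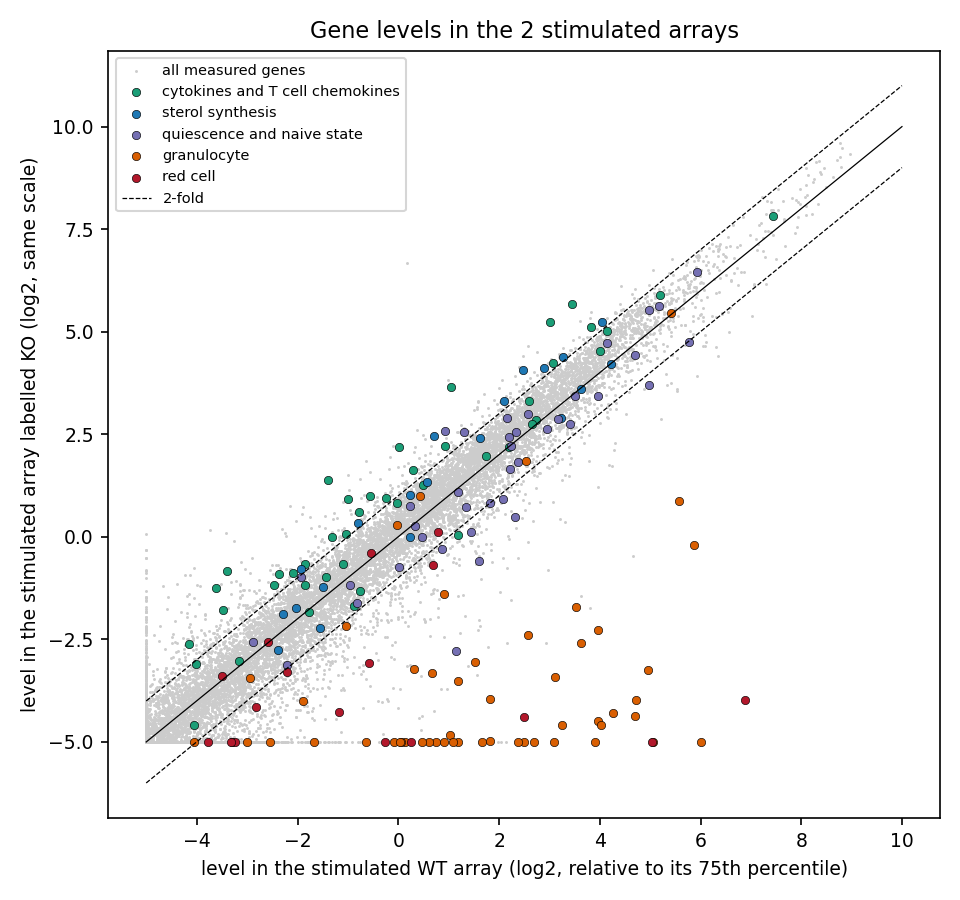
Level of each measured gene in the stimulated KO array (vertical, log2) against the stimulated WT array (horizontal, log2), with the diagonal and the 2-fold lines. Cytokine, sterol and quiescence genes lie on both sides of the diagonal, and granulocyte and red cell genes run far below it, many of them at the floor of -5.01 in KO.

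Type 1 helper genes included some of the largest positive differences, but in few members. Of 25 measured genes 4 were higher (16%, against 4.98% of all genes) and 1 lower (median 0.35), and the 4 higher ones were so under each of the 8 alternatives run for lists. Ifng encodes interferon gamma, the cytokine that defines type 1 helper cells. It had a level of 3.64 in KO and 1.04 in WT, against -1.59 and -1.42 in unstimulated KO and WT, so that it was 6.05-fold higher in KO with stimulation (2.60) and level without it. Tbx21, the transcription factor that directs this type, was at 3.48 in KO and 1.70 in WT (1.78), and at -1.14 in unstimulated KO and -1.29 in unstimulated WT. Bhlhe40, a factor that supports inflammatory cytokine output in T cells, stood at 4.14 in KO and 2.39 in WT (1.75). Il2rb, a signalling chain shared by the interleukin-2 and interleukin-15 receptors, stood at 4.195 in KO and 2.88 in WT (1.32). Stat4 (0.36), Cxcr3 (0.18) and Eomes (-0.22) were within 2-fold, as were 20 of the 25 genes in all.

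In the type 2 helper list 6 of 19 were higher (31.6%, against 4.98% of all genes) and 1 was lower (median 0.42), and 4 of the 6 are receptors. Il4, the cytokine of this type, was at 2.19 in KO and 0.01 in WT (2.18). It was also higher in unstimulated KO, at -0.45 against -3.30 in unstimulated WT (2.85). Ccr8, a chemokine receptor of type 2 and regulatory T cells read by 2 probes, was at 2.21 in KO and -0.10 in WT, a 4.97-fold higher level (2.31), and at -0.78 and -1.68 in unstimulated KO and WT. Its relative Ccr4 was at 1.95 in KO and -0.16 in WT (2.11). Il9 (1.68) was higher in KO and at the floor in both unstimulated arrays. A floor at the 60th percentile ended its call (0.58). Gata3, the factor that directs this type, was within 2-fold (0.75), as were Il5 (0.67), Il10 (0.42) and Il13 (-0.06). Il24 was at the floor in KO and -3.31 in WT (at most -1.70). With the floor at the 60th percentile the count of higher genes was 3.

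The type 17 and follicular helper list had 8 higher (36.4%, against 4.98% of all genes) and 2 lower genes of 22 (median 0.60). The cytokine Il17f was at -0.91 in KO and -2.38 in WT (1.47), whereas Il17a, which shares its receptor, was at 1.97 in KO and 1.75 in WT (0.22). Il6st, the shared signalling chain of the interleukin-6 receptor family, was at 2.57 in KO and 0.93 in WT (1.64). Its partner chain Il6ra ran the opposite way, at 0.48 in KO and 2.32 in WT (-1.83). The unstimulated levels of Il6st were 2.60 in KO and 2.44 in WT, so the stimulated WT array was the low one for this gene. For Il6ra they were 3.49 in KO and 3.07 in WT, and the stimulated KO array was the lowest of the arrays. Il1r1, a receptor for interleukin-1, was higher (1.63, but 0.88 for a floor at the 60th percentile), as were Cd40lg (1.31), Il21 (1.29) and Batf (1.25), while Bcl6 (-0.41), the factor that directs follicular helper cells, was within 2-fold.

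Many cytokine transcripts, though fewer than those that were not called, were higher in KO. Of 36 measured cytokines 15 were higher and 2 lower (median 0.80, and 0.61 after loess), where 4.98% of all genes were higher. The count of higher ones lay between 11 and 17 over the alternatives, the lowest in the authors' values. This list overlaps with the helper lists above, where Ifng, Il4, Il9, Il17f, Il21, Il22 and Cd40lg were already counted as higher and Il24 as lower. Of the 15 higher cytokines 13 had a level in stimulated KO at least 2-fold above that of each other array, as had 304 of all 729 higher genes. The call itself already fixes the comparison with stimulated WT. Cd70, a ligand of the costimulatory receptor CD27, was 6.95-fold higher, at 1.39 in KO and -1.41 in WT (2.80). Its unstimulated levels were -1.42 in KO and -2.42 in WT. Il6 was at -1.25 in KO and -3.61 in WT (2.37, but 1.14 for a floor at the 60th percentile), and at the floor in both unstimulated arrays. Lif, a cytokine of the interleukin-6 family, was at 0.92 in KO and -0.9969 in WT (1.91). Il2, the growth factor of activated T cells, was at 5.11 in KO and 3.83 in WT (1.28). Among cytokines within 2-fold were Tnf (0.52), Lta (0.86) and Csf2 (0.45), and Il16 was lower (-1.15).

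Chemokines were the list with the largest positive median. Of 9 measured genes 8 were higher (88.9%, against 4.98% of all genes) and 0 lower (median 1.37), with 7 higher after loess. Ccl4, an inflammatory chemokine of activated T cells, was at 5.68 in KO and 3.44 in WT (2.24), against -2.77 and -2.88 in unstimulated KO and WT. Its relative Ccl3 was at 0.99 in KO and -0.57 in WT (1.56). Xcl1, which attracts cross-presenting dendritic cells, was at 4.22 in KO and 3.07 in WT (1.16). Ccl5 (2.23), Cxcl16 (1.37) and Ccl17 (2.58) differed in the unstimulated arrays too, by 1.62, 1.32 and 1.71. Ccl17 and Cxcl16 are also made by dendritic cells, whose genes Fscn1 and Batf3 differed between the unstimulated arrays by 1.40 and 1.24, and their part in these chemokine values was not tested. Ccl1, a ligand of CCR8, was at 0.07 in KO and -1.04 in WT (1.11), while without stimulation it was lower in KO (-4.34 against -2.27 in WT). The authors' values hold 6 of these genes, and 5 of them were higher.

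Receptors of migration lay on both sides, with 4 of 22 higher (18.2%, against 4.98% of all genes) and 3 lower (13.6%, against 8.13%). Their median was 0.16. Beside Ccr8 and Ccr4, the oxysterol receptor Gpr183, which places activated T cells at follicle borders, was higher at 3.62 in KO and 1.998 in WT (1.62). Cxcr5, which leads cells into follicles, was at -0.9968 in KO and -2.17 in WT (1.17). Ccr7, which guides naive cells into lymph nodes, was within 2-fold (0.43), as were S1pr1 (-0.55) and Cxcr4 (0.16).

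**Figure D3:**
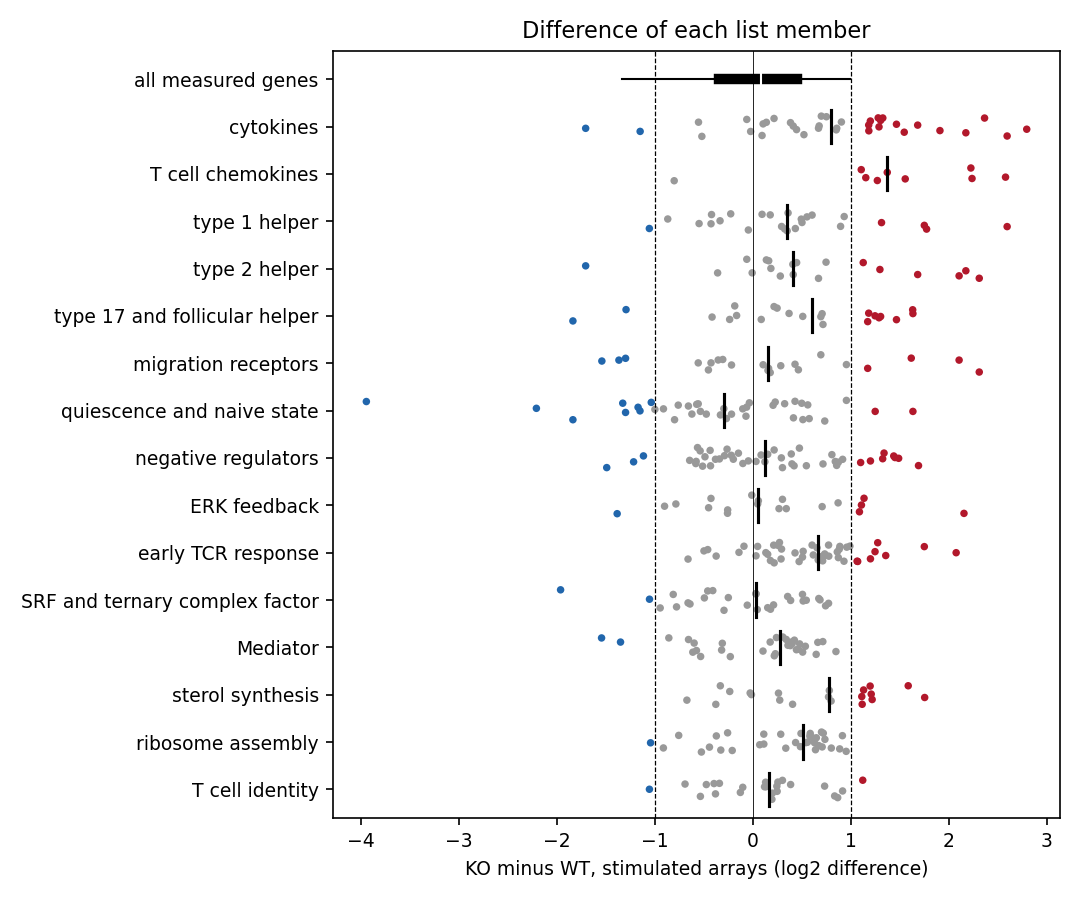
KO minus WT (log2 difference) in the stimulated arrays for each measured member of 15 lists, red for higher, blue for lower and grey for within 2-fold, with a bar at the median of the list. The top row gives all measured genes (white mark, median 0.09, thick line, the 25th to 75th percentile, thin line, -1.33 to 0.998, without the lowest and highest 5%), and the chemokine, cytokine and sterol medians of 1.37, 0.80 and 0.78 lie to its right.

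Genes of quiescence and the naive state were the T cell list with the most lower members. Of 39 measured genes 8 were lower (20.5%, against 8.13% of all genes) and 2 higher (5.13%, against 4.98%), with a median of -0.29. Of the 8, 7 were lower in the stimulated KO array than in each other array by at least 2-fold, as were 285 of all 1189 lower genes. The call itself already fixes the comparison with stimulated WT. Klf2 keeps naive T cells at rest and drives S1pr1. It was at 4.74 in KO and 5.78 in WT, and at 6.36 and 6.76 in unstimulated KO and WT, so that stimulated KO was the lowest of the arrays by 1.03. This 2.05-fold difference lies just past the 2-fold rule, and it was past it in 7 of 8 alternatives. Klf7, a related factor, was at -0.60 in KO and 1.60 in WT (-2.21), and close in the unstimulated arrays, at 1.24 in KO and 1.11 in WT. Among brakes on growth, the CDK inhibitor Cdkn1b was at 0.91 in KO and 2.07 in WT (-1.17), and Sesn1, an inhibitor of mTORC1, at 0.11 in KO and 1.44 in WT (-1.32). Sesn3, its relative, ran the other way (1.25). Dapl1, a marker of naive T cells, had the largest difference, at -2.80 in KO and 1.14 in WT, 15.4-fold lower in KO (-3.94). It was also lower in unstimulated KO, at 1.41 against 4.42 in unstimulated WT. Foxp1, which enforces quiescence, was lower (-1.15), but Foxo1 (0.23), Tcf7 (-0.29), Il7r (-0.07) and Txnip (-0.10) were within 2-fold. With scaling to the median 5 genes were lower, and after loess 9.

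**Figure D4:**
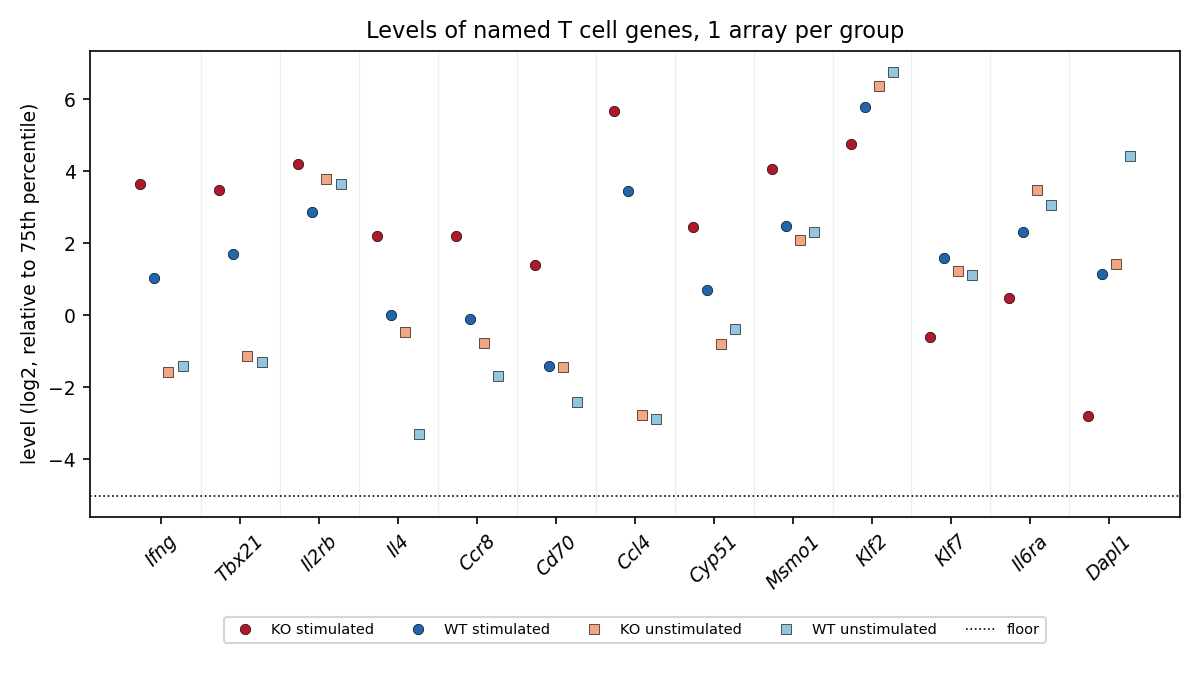
Levels (log2, above or below the array's 75th percentile) of 13 named genes in the stimulated KO and WT arrays (circles) and the unstimulated KO and WT arrays (squares), 1 array per group, with the floor dotted. Stimulated KO is the highest point for Ifng, Tbx21, Il4, Ccr8, Cd70, Ccl4, Cyp51 and Msmo1 and the lowest for Klf2, Klf7, Il6ra and Dapl1.

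Genes that restrain TCR and cytokine signals were found on both sides, 8 of 47 higher (against 4.98% of all genes, and 6 genes after loess) and 3 lower (6.38%, against 8.13%; median 0.13). Cish, an inhibitor of cytokine receptor and TCR signals, was at 6.50 in KO and 5.06 in WT (1.44). Socs1, which blocks JAK kinases, was at 6.05 in KO and 4.70 in WT (1.34). Nfkbia, the NF-kB inhibitor that NF-kB itself induces, was at 6.11 in KO and 4.42 in WT (1.69), and the inhibitory receptor Lag3 at 0.58 in KO and -0.87 in WT (1.45). Rnf128, a ubiquitin ligase of anergic T cells, was also higher (1.49). On the lower side, Csk, the kinase that holds Lck inactive, was at -0.59 in KO and 0.62 in WT (-1.21). The mRNA decay factors Zc3h12a and Zfp36, which shorten the life of cytokine transcripts, were at -4.91 and -2.56 in KO and at -3.42 and -1.45 in WT, differences of -1.49 and -1.11 at dim levels, with Zc3h12a at -0.95 under the pseudocount. Ctla4 (-0.64), Pdcd1 (0.72), Cblb (0.29) and Socs3 (0.40) were within 2-fold.

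The early TCR response, which includes targets of ELK1 and SRF, differed in part. Of 48 genes 8 were higher (16.7%, against 4.98% of all genes) and 0 lower (median 0.66, and 0.42 after loess with 5 higher). Cd83, a surface marker of activated lymphocytes and of mature dendritic cells, was at 4.65 in KO and 2.57 in WT (2.08). Atf3, a stress-induced factor, was at 2.55 in KO and 1.19 in WT (1.36), and Rgs16, which dampens chemokine receptor signals, at 3.23 in KO and 1.96 in WT (1.28). Nr4a2, an orphan nuclear receptor, was at 4.87 in KO and 3.79 in WT (1.07). The activation marker Cd69 was at 6.39 in KO and 5.46 in WT (0.93), Il2ra differed by 0.14 and Irf4 by 0.27. Of 28 genes of SRF, its partners and their targets 0 were higher and 2 lower (7.14%, against 8.13% of all genes), with a median of 0.03, and -0.18 after loess. These were the cytoskeletal Vcl, at -3.47 in KO and -1.51 in WT (-1.96), and Ccn1 (-1.05), which was past 2-fold in 2 of 6 alternatives. The EGR genes, textbook targets of ELK1 and SRF, were within 2-fold with stimulation: Egr1 was at 4.65 in KO and 5.10 in WT (-0.46), Egr2 differed by 0.04 and Egr3 by 0.15. Without stimulation Egr1 was lower in KO, at 2.04 against 3.22 in WT (-1.18), while Egr2 differed by -0.73 and Egr3 by 0.04. Fos was at 2.88 in KO and 2.10 in WT (0.78). ERK feedback genes numbered 4 higher (21.1%) and 1 lower (5.26%) of 19 (median 0.06), and 3 higher and 3 lower after loess. Spred1, an inhibitor of RAS activation, was at 1.39 in KO and -0.76 in WT (2.16), and the ERK phosphatase Dusp4 at 1.01 in KO and -0.13 in WT (1.14). Rasgrp2, an activator of RAP1, was lower (-1.38).

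Several sterol synthesis enzymes were higher in stimulated KO. Of 20 genes 8 were higher (40%, against 4.98% of all genes) and 0 lower (median 0.78), while in the unstimulated pair 0 were called in either direction, a difference between the pairs that was not tested. The 12 others of the list were within 2-fold, and 6 of them lay below 0. Cyp51, the sterol demethylase, was at 2.46 in KO and 0.70 in WT, 3.38-fold higher (1.76), and at -0.81 and -0.37 in unstimulated KO and WT. Msmo1, which acts after it, was at 4.06 in KO and 2.47 in WT (1.59). Hmgcs1, which opens the pathway, was at 4.10 in KO and 2.88 in WT (1.22), Sc5d, a late desaturase, at 3.31 in KO and 2.10 in WT (1.21), and Idi1, an isomerase of isoprenoid units, at 5.24 in KO and 4.04 in WT (1.20). Dhcr7 (1.13) and Mvd (1.12), which act late and early in the pathway, were higher too, but for both the stimulated WT array was the low one. Dhcr7 was at -0.79 in KO and -1.93 in WT, and at 0.09 and 0.48 in unstimulated KO and WT. Mvd was at 0.32 in KO and -0.80 in WT, and at 0.16 and 0.35 in unstimulated KO and WT. Sqle, the squalene epoxidase, was not among the higher enzymes, at 4.201 in KO and 4.21 in WT (-0.01). The bright members are open to the drift with level: 4 genes were higher after loess and 5 under quantile normalization, and the median after loess was 0.61 against -0.01 for all genes. Cyp51, Msmo1 and Dhcr7 were past 2-fold in 8 of 8 alternatives, Sc5d in 7 and Hmgcs1 and Idi1 in 5. Of 16 genes of sterol control and transport 2 were higher (12.5%, and 1 gene after loess) and 0 lower (median 0.35). Srebf2, the factor that drives the pathway, was at 1.74 in KO and 1.02 in WT (0.73). Of 14 fatty acid synthesis genes 1 was higher (7.14%), the desaturase Scd2 (1.13, but 0.98 after loess), and 2 were lower (14.3%, against 8.13% of all genes). The median was 0.25, and of the lower ones the acetyl-CoA synthetase Acss2 was at -2.98 in KO and -1.03 in WT (-1.95).

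Promoters of sterol enzymes are shown since several of the genes were higher together. They are RefSeq sequences of build GRCm38.p6, from 250 bases before to 50 after the annotated start, 5′ to 3′ on the strand of the gene. Capitals mark matches on either strand to TCACNCCAC, a form of the sterol regulatory element bound by SREBP, and to CCAAT, the box bound by NF-Y (ATTGG on the opposite strand). No matches of the motifs overlap each other in the sequences shown. Hmgcs1 is shown for its element match, and Cyp51 and Msmo1, with the largest differences, were chosen after their values were seen. They lie at chr5:4104648-4104947 on the minus strand (Cyp51), chr8:64733529-64733828 on the minus strand (Msmo1) and chr13:119690101-119690400 on the plus strand (Hmgcs1).
Cyp51: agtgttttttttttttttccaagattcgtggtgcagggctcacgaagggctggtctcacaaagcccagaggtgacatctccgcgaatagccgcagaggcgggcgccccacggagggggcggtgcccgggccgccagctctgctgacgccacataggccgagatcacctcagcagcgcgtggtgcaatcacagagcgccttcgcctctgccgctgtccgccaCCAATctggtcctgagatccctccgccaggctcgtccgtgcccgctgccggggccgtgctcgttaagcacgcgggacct
Msmo1: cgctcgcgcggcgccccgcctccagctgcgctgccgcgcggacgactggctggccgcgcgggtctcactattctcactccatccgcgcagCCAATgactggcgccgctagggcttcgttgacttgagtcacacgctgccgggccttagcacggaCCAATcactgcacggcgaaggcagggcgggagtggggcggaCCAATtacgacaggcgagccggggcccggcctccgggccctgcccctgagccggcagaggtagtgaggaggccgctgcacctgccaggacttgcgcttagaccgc
Hmgcs1: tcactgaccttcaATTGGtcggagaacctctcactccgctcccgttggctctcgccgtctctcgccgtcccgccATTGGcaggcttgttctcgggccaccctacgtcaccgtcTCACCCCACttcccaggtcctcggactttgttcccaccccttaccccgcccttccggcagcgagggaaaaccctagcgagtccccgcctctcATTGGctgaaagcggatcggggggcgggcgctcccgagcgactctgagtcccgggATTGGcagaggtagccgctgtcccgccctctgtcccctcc
Of the 8 higher enzymes 7 had a promoter entry. TCACNCCAC was found in 1 of these 7 and in 0 of 8 enzymes that were not called, against 1.44% of the 27025 genes of the table. CCAAT was found in 7 of 7 and in 7 of 8, against 41.1% of all genes. A match is a description of letters in this window, and both called and uncalled enzymes mostly held the box.

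Genes of growth, metabolism and stress are set beside the shares of all genes, 4.98% higher and 8.13% lower. Ribosome assembly genes had 0 of 34 higher and 1 lower (2.94%, median 0.52, and 0.27 after loess), with the bright nucleolar factors Fbl (0.89) and Bop1 (0.92) short of 2-fold. Npm1 was the lower one (-1.04), with probes that disagree in sign. Glycolysis and nutrient uptake genes had 0 of 27 higher and 2 lower (7.41%, median 0.26), or 3 lower after loess. These were the lactate exporter Slc16a3, at 1.68 in KO and 2.99 in WT (-1.31), and the enolase Eno1, at 5.47 in KO and 6.55 in WT (-1.08). Hexokinase Hk2 (0.55) and the amino acid carrier chain Slc3a2 (0.99) were within 2-fold. Of 28 heat shock and unfolded protein genes 3 were higher and 2 lower (median 0.45). Hspa1a, an inducible HSP70, was at -0.60 in KO and -1.94 in WT (1.35), and Chac1, a target of the amino acid stress response, at 1.70 in KO and -0.005 in WT (1.70). Hsp90aa1, the inducible HSP90, was lower at 4.62 in KO and 6.32 in WT (-1.69). Of 34 cell cycle genes 2 were higher and 2 lower (5.88% each, median 0.29), and after loess 1 was higher and 3 lower. The replication helicase subunit Mcm5 was at 3.13 in KO and 1.78 in WT (1.36). The transcription factor E2f2, which restrains T cell proliferation, was at -1.87 in KO and -0.25 in WT (-1.62), and the mitotic cyclin Ccna2 at 0.23 in KO and 1.51 in WT (-1.29).

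Interferon response genes had no common direction, with 4 of 37 higher (10.8%, against 4.98% of all genes) and 3 lower (8.11%, against 8.13%). Their median was 0.33. Oasl2, of the oligoadenylate synthetase family, was at 0.08 in KO and -3.43 in WT (3.51). Without stimulation it was at -0.43 in KO and at the floor in WT, a difference that was present before stimulation. Oas1a behaved alike, at 0.65 in KO and -0.97 in WT (1.62), and 0.87 in unstimulated KO and -0.78 in unstimulated WT. The RNA sensor Ifih1 (1.36) and the chemokine Cxcl10 (1.27) were higher, Ifit1 (-1.08) was lower, and Isg15 differed by 0.09. Regulatory T cell genes had 1 of 20 higher (5%), Il2rb, and 1 lower (5%), the orphan receptor Gpr83. Gpr83 was at -3.94 in KO and -1.89 in WT (-2.04), a call that a floor at the 60th percentile ended (-0.49). Foxp3, the defining factor, was at 3.64 in KO and 2.89 in WT (0.75). Effector and memory genes had 3 of 27 higher and 3 lower (11.1% each, median 0.11, and -0.03 after loess). The lower ones, S100a6 (-2.16), Anxa1 (-4.71) and Ccr2 (at most -1.54), did not share a pattern over the arrays. S100a6 and Ccr2 were lower in stimulated KO than in each other array, and Anxa1 was higher in stimulated WT than in each other array, as granulocyte genes were, whose part in it was not tested. The repressor Prdm1 was higher at -0.65 in KO and -1.83 in WT (1.18). Cytotoxic granule genes had 2 of 13 higher (15.4%), the granzyme inhibitor Serpinb9 (1.20) and its relative Serpinb6b (1.70). The 1 lower gene (7.69%) was the perforin Prf1, at -1.41 in KO and -0.01 in WT (-1.40). Granzyme B (Gzmb) was level (0.03). Of 19 BCL2 family and survival genes 3 were higher (15.8%) and 2 lower (10.5%), with a median of 0.21, and -0.07 after loess. The survival protein Bcl2l1 was at 2.03 in KO and 0.63 in WT (1.41), the death-promoting Pmaip1 at 0.87 in KO and -0.43 in WT (1.29) and the death effector Bak1 at 0.44 in KO and 1.60 in WT (-1.16).

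Of 21 B cell genes 8 were higher (38.1%, against 4.98% of all genes) and 3 lower (14.3%, against 8.13%), with a median of 0.37. Several of the higher ones differed in the unstimulated arrays too, though Cd79a did not (-0.12). The joining chain Jchain was at 0.18 in KO and -2.30 in WT (2.48), and at 2.89 in unstimulated KO and -0.39 in unstimulated WT. The class II genes H2-Eb1 (1.62), H2-Aa (1.42) and H2-Ab1 (1.26) and their invariant chain Cd74 (1.43) were 1.79, 1.74, 1.59 and 1.28 higher in unstimulated KO. Dendritic cells express these class II genes as well. The defining B cell genes were dim: Ms4a1 was at -4.64 in KO and at the floor in WT, and Ebf1 at the floor in both. Of 11 natural killer genes 1 was higher and 1 lower (9.09% each, median -0.17). Of 10 mast cell, basophil and platelet genes 1 was higher (10%) and 3 lower (30%, median -0.30). Of 10 stroma and endothelium genes 0 were higher and 2 lower (20%, median -0.18).

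**Figure D5:**
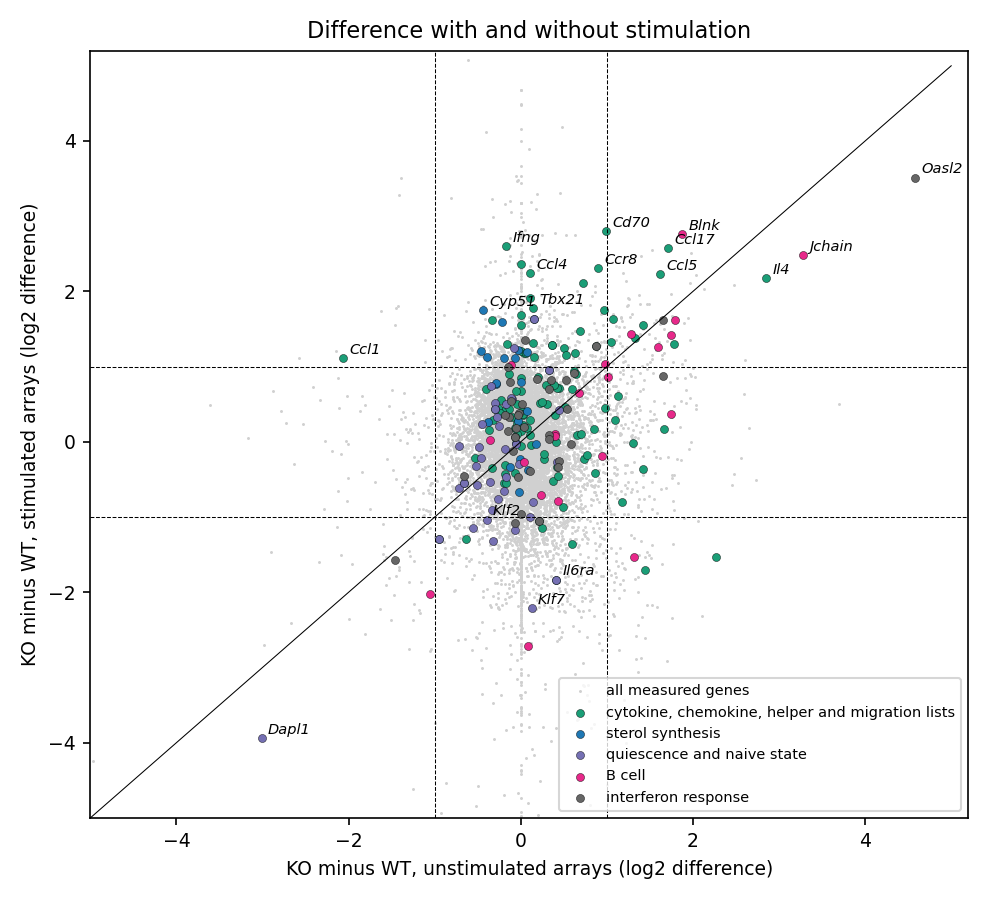
KO minus WT in the stimulated arrays (vertical, log2) against KO minus WT in the unstimulated arrays (horizontal, log2), with 1 point per measured gene, the diagonal and the 2-fold lines. Ifng, Ccl4 and Tbx21 lie near 0 on the horizontal axis and Cyp51 at -0.44. Il4, Jchain, Oasl2 and Dapl1 lie past 2-fold in the same direction on both axes, and 58 genes lie outside the axis range.

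Outside the marker lists, the largest positive difference belonged to Sbk1, a kinase gene, at 6.67 in KO and 0.18 in WT (6.49). Its unstimulated levels were 1.27 in KO and 1.70 in WT, so the stimulated KO array alone was bright. Oasl2 came next, and the 10 largest also held Nkx2-4 (3.48), Fbxo36 (3.30), Olfr213 (3.29), Acot6 (3.24), Ltk (3.20), Gtpbp3 (3.16) and Insm1 (2.89), each read by 1 probe. With the floor at the 60th percentile the differences of Nkx2-4 (1.18), Acot6 (1.23), Olfr213 (1.43), Ltk (1.44) and Fbxo36 (1.62) were smaller. Of these, Gtpbp3, an enzyme of mitochondrial tRNA modification, was at -0.11 in KO and -3.26 in WT, and at -0.55 in unstimulated KO and -0.37 in unstimulated WT, so that the stimulated WT array was the low one. The largest negative differences were those of the complement component C3, at -1.75 in KO and 3.81 in WT (-5.56), and of Lyl1, a factor of blood progenitors, at -2.60 in KO and 2.93 in WT (-5.54). Fbp1 (-4.97), Mndal (-4.94), Gpr84 (-4.85), Agpat1 (-4.83), Pi16 (-4.75), Gsdme (-4.56), Nfam1 (-4.53) and Luc7l3 (-4.51) followed. All 10 were brightest in the stimulated WT array, which their choice by the difference of this pair makes likely. The part of granulocytes and other blood cells in them was not tested.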

How the data were processed

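Single-colour Agilent arrays of 4 samples, 1 per group, were analysed. The deposited intensity of each spot is the signal left by Agilent Feature Extraction 10.7.3.1, as the submitters' processing notes name it. The values are linear and differ in overall brightness between arrays, and no spot flags come with them. The deposited log2 values of 17878 probes were normalized by the authors in GeneSpring GX 11.5.1, per the file headers, with a method and filter not given in the sources used here.

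From the intensity, log2 signals of the spots of a probe were averaged and the 75th percentile over 39429 probes was subtracted in each array. The floor (log2 -5.01) is the median of the 40th percentiles of the 4 arrays. Probes were named by unversioned accession through a RefSeq table of GRCm38.p6, used for names only, and 26299 matched, giving 19896 genes. The 13130 unnamed probes were left out. Floored probes of a gene were averaged. Values were computed with Python 3.11.15, numpy 2.4.6, pandas 2.3.3 and statsmodels 0.14.6, and the steps were tested on simulated data.

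The 33 lists (803 genes, 785 on the array), the members and the rules were chosen with earlier results of these data known. Lists overlap, so a gene can be counted in several of them, as Il6ra and Il6st were in the type 17 and quiescence lists. The rule for named genes takes Med23, the 5 genes Ifng, Klf2, Cyp51, Ccr8 and Tbx21, up to 6 members of a list with the largest difference above the floor in both arrays and with probes of 1 sign, up to 3 bounds per list, and the 10 largest differences in each direction outside the marker lists. Other members are named as examples of a list, chosen after their values were seen. Alternatives were scaling to the median, quantile normalization, a loess on mean level, the authors' values, floors at the 20th and 60th percentiles, a pseudocount of the size of the floor, the brightest probe of a gene and leaving out blood cell genes. No test was run, since each group had 1 array, and leaving out an array would leave no comparison. Some genes that the rule names are not reported here.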

Additional observations from a re-analysis of the deposited data

Results flagged for a closer look

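The genes below are examples among the list members and the largest differences that differed 2-fold in opposite directions with and without stimulation. The difference between the pairs was not tested. Each pair has 1 array per group.

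Of 956 lower genes measured in the unstimulated pair, 79 were 2-fold higher in unstimulated KO than in unstimulated WT, where 3.31% of all genes were. Outside the granulocyte, red cell and monocyte lists there were 69 of them. Of 642 higher genes measured there, 12 were 2-fold lower in unstimulated KO, where 1.42% of all genes were. Members of those lists had differences of -10.05 with and 1.34 without stimulation for Hba-a1, -10.87 with and 1.13 without stimulation for Hba-a2, -7.71 with and 1.28 without stimulation for Lyz2, -9.08 with and 1.85 without stimulation for Mpo, -8.69 with and 1.60 without stimulation for Plbd1. The same pattern was found for Tgfbi (-5.17 and 1.57), Tyrobp (-5.07 and 1.78), Ly86 (-1.53 and 1.31), Pi16 (-4.75 and 1.10), Gsdme (-4.56 and 1.00). The stimulated values of Hba-a1 and Lyz2 are bounds (at most), since stimulated KO was at the floor, and the unstimulated values of Mpo, Hba-a1 and Lyz2 are bounds (at least), since unstimulated WT was at the floor.

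In T cell lists, Ccr2 (at most -1.54 with and 2.27 without stimulation) and Il24 (at most -1.70 and 1.44) followed the same direction at dim levels, and Hsp90aa1 did so at bright ones (-1.69 and 1.21). The opposite direction was found for Hspa1a (1.35 and -1.11) and Ccl1 (1.11 and -2.06), and among the largest differences for Olfr213 (3.29 and -1.42).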

How the results depend on the processing

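Of 114 recomputed counts for all genes and for the lists described first, 97 stayed within 1.5 times the reported count and 17 moved further. Of 1704 recomputed gene differences, 418 moved by more than the spot SD and 0 turned the sign of a called gene. Of 153 named genes past 2-fold 100 had a value in all 8 alternatives, and 77 of these were past it in all 8. Beside those given with the results, calls of Fyn, Bak1, Eno1 and Ifit1 were lost with scaling to the median, that of Slc16a3 with the brightest probe (-0.93) and that of Cd8b1 with the floor at the 60th percentile (0.85). That floor also gave Ccl17 1.55, Vcl -1.15, Acss2 -1.28, Agpat1 -2.79, Gpr84 -2.84, Luc7l3 -2.08 and Fbp1 -3.096. The count of higher genes, 729, was 1335 with scaling to the median, 1183 with a floor at the 20th percentile and 368 at the 60th. The count of lower genes, 1189, was 563 in the authors' values and 496 for a floor at the 60th percentile. In the authors' values, which hold fewer probes, 5 chemokines and 5 early TCR response genes were higher, and 12 granulocyte, 3 red cell and 6 monocyte, macrophage and dendritic genes were lower. With the floor at the 60th percentile 3 type 2 helper genes were higher and 8 red cell genes lower. Scaling to the median gave 14 higher early TCR response genes and 5 lower quiescence genes. Loess on mean level gave 5 higher early TCR response genes and 4 higher sterol synthesis genes, and quantile normalization gave 5 of these sterol genes. The fewer probes and the floors change how many genes are tested, and the cause of the other moves was not tested.

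No paired analysis was possible because each group has 1 array. Signal over background limits dim genes, since 14.9% of spots between the floor and -3 lay 2-fold or more from the mean of their probe, against 0.097% above a level of 1.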

Other observations

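Probes without a gene name here, left out of the report, were called lower more often than higher, as named genes were with this scaling. With other scalings the split of named genes turned, and that of unnamed probes was not recomputed. Of 7486 measured ones 6.84% were 2-fold higher in stimulated KO than in stimulated WT and 13.5% lower, with a median difference of -0.003.

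The drift of the difference with level was not symmetric. Among genes with a mean level between -4 and -3, 8.04% were higher in KO and 12.9% lower, whereas between 2 and 4 the shares were 3.91% and 2.18%. Both shares were larger in the dimmer of these ranges, that of lower genes by more.

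Not all genes on the granulocyte list followed it. The receptor Csf3r had levels of 5.44 in stimulated KO and 5.41 in stimulated WT, and 5.90 and 5.78 in unstimulated KO and WT, so its probe was bright in every array, whereas Camp, Ltf and Retnlg were at the floor in both KO arrays.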
